A study of Homo sapiens with 9 samples.

Results

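The genes described here are 10 enzymes and chaperones that modify collagen: the lysyl oxidases LOXL2, LOX and LOXL1, the prolyl 4-hydroxylase subunits P4HA1, P4HA2 and P4HB, the lysyl hydroxylases PLOD1, PLOD2 and PLOD3, and the collagen chaperone SERPINH1. They were chosen from the 58395 genes listed in each table by symbol, all 10 were found, and 9 of them had enough counts to be tested, LOX being the exception. Levels were measured by RNA sequencing in HCT116, a human cell line derived from a colon carcinoma, in 9 libraries that form 3 groups of 3. Every group carried a hairpin RNA against STBD1 (shSTBD1), a glycogen-binding protein that links glycogen to autophagy. On this background, plvx neo cells received the plvx vector alone, STBD1 WT cells a hairpin-resistant wild-type STBD1, and STBD1 W203C cells the same construct with a changed residue in the motif through which STBD1 binds ATG8-family proteins. Constructs and hairpin were delivered by lentivirus and kept by drug selection, and the study's methods give 1 stable population per construct, and although the libraries are called biological replicates there, nothing says that they came from separate infections, so p-values measure the spread between these libraries.

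The labels of the 2 construct groups carry a doubt that touches every direction below. The names of the deposited tables, and the study's own supplementary expression table, place the libraries labelled STBD1 WT under STBD1 W203C and the reverse. The sample labels were followed throughout. If the 2 labels were exchanged, each difference between the constructs would change sign, and their comparisons with plvx neo would trade places. The level of STBD1 does not settle the matter, because both constructs are expressed: STBD1 together with FAM47E-STBD1, a readthrough gene that covers it, summed to 4.85 ± 0.751 TPM (a level per unit of transcript length, mean ± SD, n = 3) in plvx neo, 54.6 ± 2.39 TPM under the STBD1 WT label and 46.1 ± 2.30 TPM under the STBD1 W203C label.

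Collagen chains are modified in the endoplasmic reticulum before they are secreted. Prolyl 4-hydroxylase, a tetramer of alpha subunits (P4HA1, P4HA2) that carry the active site and of P4HB, which is also protein disulfide isomerase, makes the hydroxyproline that holds the triple helix together. Lysyl hydroxylases (PLOD1, PLOD2, PLOD3) hydroxylate lysines that later carry sugars or crosslinks, SERPINH1 (HSP47) binds the folded triple helix, and lysyl oxidases (LOX, LOXL1, LOXL2) oxidise lysines outside the cell so that collagen and elastin crosslink. The hydroxylases need oxygen, iron and 2-oxoglutarate, several of these genes are known targets of hypoxia-inducible factors (HIF), and LOXL2 is known in carcinoma for its part in matrix stiffening and invasion.

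The total expected count was between 16.9 and 23.3 M (M, mega) per library. Colon epithelial markers matched the cell line in part: EPCAM was between 178.59 and 225.53 TPM, KRT8, KRT18, KRT19, CDH1 and CDX2 were expressed in all 9 libraries, VIL1 reached at most 0.08 TPM and CDX1 was at 0. Of 9 fibroblast markers, DCN and LUM were at 0 in all libraries and all others except COL1A1 stayed at or below 0.30 TPM, so the defining markers of the usual collagen-producing cell were at or near 0. In bulk samples, fewer cells of a kind and less RNA per cell cannot be told apart.

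Per unit of transcript length, the 10 genes spanned levels from P4HB, with a mean of 699.1 TPM over the 9 libraries (range 656.57 to 728.28), to LOX, with 0.138 TPM (0.06 to 0.27). PLOD1 came second with a mean of 131.0 TPM, followed by SERPINH1 with 78.3, PLOD3 with 49.8, P4HA1 and P4HA2 with 22.6 each, LOXL2 with 18.9, PLOD2 with 13.4 and LOXL1 with 6.18 TPM. The ranges of P4HB, PLOD1, SERPINH1 and PLOD3 did not overlap each other or those of the genes below them. P4HA1, P4HA2 and LOXL2 overlapped in range, LOXL2 and PLOD2 overlapped as well, and LOXL1 and LOX each lay apart from the rest. The most abundant genes were thus P4HB, which has roles outside collagen, and the lysyl hydroxylase PLOD1, while the lysyl oxidases LOXL1 and LOX stood at the low end.

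**Figure D1:**
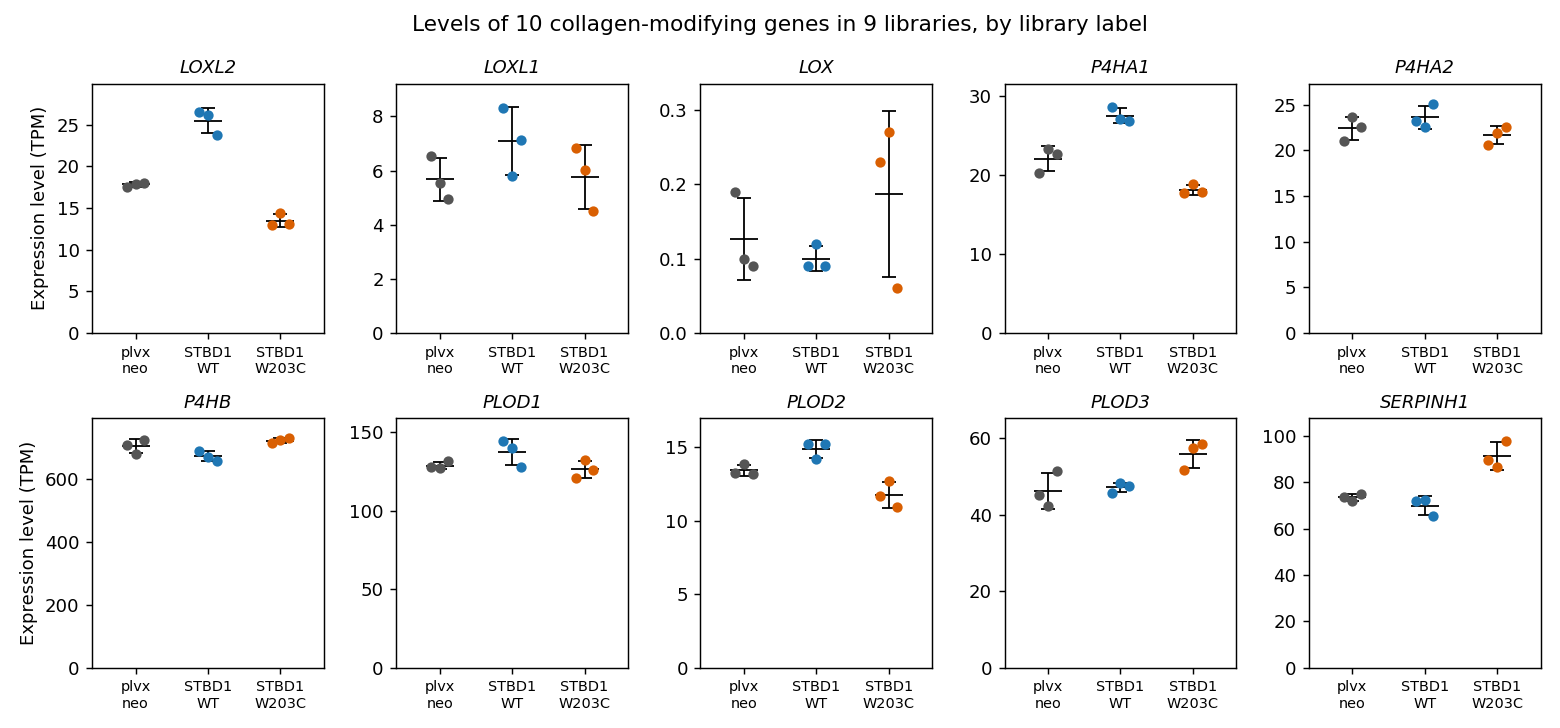
Level of each of the 10 genes in TPM (vertical axes, each from 0) in the 9 libraries, grouped by label, with a point per library and the mean ± SD of 3 libraries as a bar. LOXL2, P4HA1 and PLOD2 are highest in the libraries labelled STBD1 WT and lowest in those labelled STBD1 W203C with no overlap between groups, and SERPINH1 is highest in the libraries labelled STBD1 W203C, between 86.50 and 98.03 TPM.

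LOXL2 (chromosome 8, 23296897 to 23425328, minus strand, GRCh38, 14 exons in its reference transcript) had the widest spread between groups of the genes that could be tested. Its level was 17.52, 17.93 and 18.05 TPM in plvx neo, 26.52, 26.17 and 23.76 TPM in the libraries labelled STBD1 WT, and 12.96, 14.37 and 13.12 TPM in those labelled STBD1 W203C. All 3 groups lay apart, with plvx neo in the middle. On counts normalised for library composition, LOXL2 was 1.46-fold higher in the libraries labelled STBD1 WT than in plvx neo (log2 fold change 0.55, SE 0.0512, 95% interval 0.45 to 0.65). Between the constructs the level ratio of STBD1 W203C to STBD1 WT was 0.503 (log2 fold change −0.99, SE 0.0662), which ranked LOXL2 172nd from the lowest of 15052 genes, and between STBD1 W203C and plvx neo it was 0.733 (log2 fold change −0.45, SE 0.0707). These values rest on 543 to 1568 expected counts per library. An antisense gene, LOXL2-AS1, and a neighbour on the same strand, ENTPD4, share exon bases with LOXL2, 178 and 120 of 5985. LOXL2-AS1 averaged 0.143 TPM. ENTPD4, with a mean of 19.2 TPM, stayed between −0.06 and 0.05 in log2 fold change in the same 3 comparisons.

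LOXL1, the enzyme tied to elastic fibres, was at 6.53, 5.56 and 4.95 TPM in plvx neo, 8.32, 5.81 and 7.12 in the libraries labelled STBD1 WT, and 6.82, 6.03 and 4.49 in those labelled STBD1 W203C. All 3 groups overlapped in TPM. LOXL1 had a log2 fold change of 0.25 (SE 0.113) for STBD1 WT vs plvx neo, −0.15 (SE 0.110) between the constructs and 0.09 (SE 0.116) for STBD1 W203C vs plvx neo, none of them called. LOXL1 had 153 to 233 expected counts in a library, and its 95% interval between the constructs, −0.36 to 0.06, did not reach the value of LOXL2. LOXL1 shares 335 exon bases with LOXL1-AS1 on the opposite strand, which averaged 7.46 TPM, and without knowing whether counting used strand their reads cannot be told apart. LOX, the founding member of the family, had only 5 to 21 expected counts in a library and did not pass the filter on low counts in any comparison. Without that filter it was tested and not called. Its 95% interval was then −0.84 to 1.46 for STBD1 WT vs plvx neo, −0.22 to 1.71 between the constructs and 0.04 to 2.05 for STBD1 W203C vs plvx neo on the log2 scale.

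The lysyl oxidase family as a whole, LOX and LOXL1 to LOXL4, summed to 27.6 ± 0.655 TPM in plvx neo, 35.6 ± 1.83 in the libraries labelled STBD1 WT and 23.1 ± 2.57 in those labelled STBD1 W203C. LOXL2 made up 64.7 ± 0.739%, 71.6 ± 1.39% and 58.7 ± 5.37% of that sum, respectively. The single libraries of STBD1 W203C gave 54.5, 56.9 and 64.8%, the last of which lay within the range of plvx neo (63.8 to 65.2%).

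P4HA1 and P4HA2, both catalytic subunits of prolyl 4-hydroxylase, had almost equal mean levels and differed in their pattern. P4HA1 (chromosome 10, 73007217 to 73096974, minus strand) was at 20.27, 23.34 and 22.63 TPM in plvx neo, 28.69, 27.08 and 26.86 in the libraries labelled STBD1 WT and 17.75, 18.87 and 17.81 in those labelled STBD1 W203C. As for LOXL2, the groups did not overlap and plvx neo lay between the constructs. The log2 fold change of P4HA1 was 0.34 (SE 0.0632) for STBD1 WT vs plvx neo, −0.64 (SE 0.0566) for STBD1 W203C vs STBD1 WT and −0.31 (SE 0.0665) for STBD1 W203C vs plvx neo. P4HA2, at 21.03, 23.60 and 22.58 TPM in plvx neo, 23.20, 22.56 and 25.05 in the libraries labelled STBD1 WT and 20.57, 21.92 and 22.51 in those labelled STBD1 W203C, differed by 0.04 (SE 0.0553) on the log2 scale in the first comparison, −0.14 (SE 0.0573) in the second and −0.11 (SE 0.0572) in the last. In TPM the plvx neo range of P4HA2 overlapped both construct groups. The 95% intervals of the 2 genes between the constructs, −0.75 to −0.53 for P4HA1 and −0.26 to −0.03 for P4HA2, did not overlap.

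P4HB (chromosome 17, 81843159 to 81860856, minus strand) varied little. Its level ran from 680.12 to 723.88 TPM in plvx neo, from 656.57 to 688.11 in the libraries labelled STBD1 WT and from 712.35 to 728.28 in those labelled STBD1 W203C, and on the log2 scale it differed by −0.05 (SE 0.0387) in STBD1 WT vs plvx neo, by 0.07 (SE 0.0371) between the constructs and by 0.01 (SE 0.0353) in STBD1 W203C vs plvx neo. None of these was called, but after correction for GC content and length, an alternative chosen after seeing the data, P4HB was called at −0.14 in STBD1 WT vs plvx neo and at 0.16 between the constructs. The level of P4HB was 15.7 ± 1.27 times the sum of the alpha subunits P4HA1, P4HA2 and P4HA3 in plvx neo, 12.9 ± 0.469 times in the libraries labelled STBD1 WT and 17.9 ± 0.366 times in those labelled STBD1 W203C. The 3 groups did not overlap in this ratio, and the alpha sum was 45.1 ± 2.83, 51.9 ± 1.31 and 40.3 ± 1.20 TPM. Within that sum P4HA1 took 48.9 ± 0.522%, 53.1 ± 2.06% and 45.0 ± 1.16%.

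**Figure D2:**
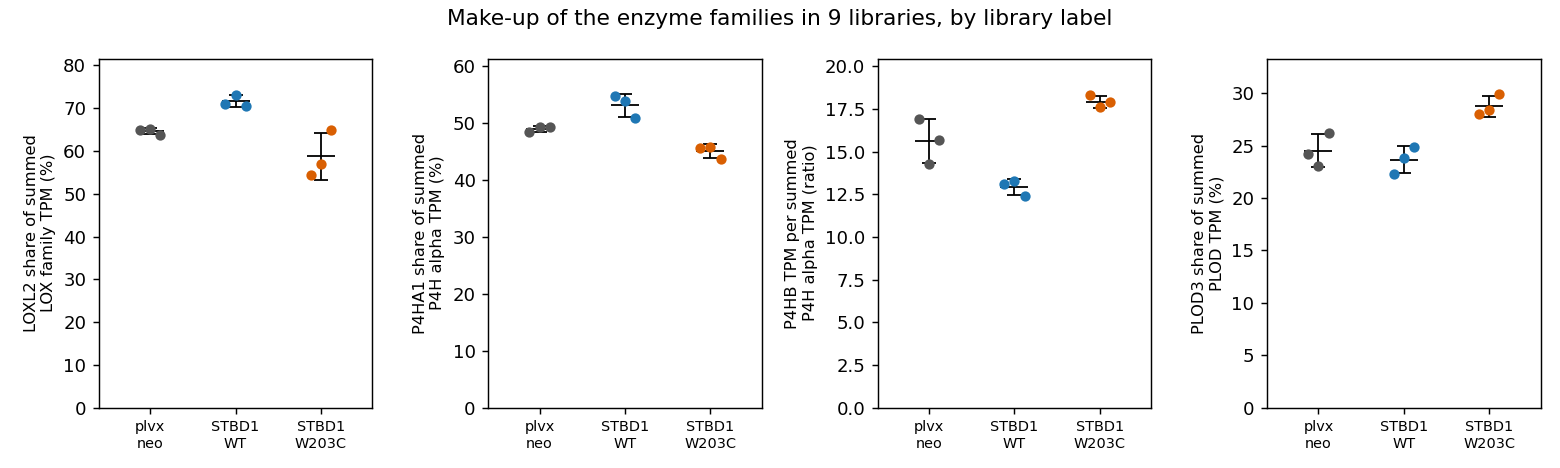
Make-up of the enzyme families computed from TPM in the 9 libraries, grouped by label: the share of LOXL2 in the LOX family, of P4HA1 in the prolyl 4-hydroxylase alpha subunits and of PLOD3 in the lysyl hydroxylases (percent), and the ratio of P4HB to the summed alpha subunits. Points are libraries and bars the mean ± SD of 3. The ratio is lowest in the libraries labelled STBD1 WT (mean 12.9) and highest in those labelled STBD1 W203C (mean 17.9).

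Of the lysyl hydroxylases, PLOD2 showed the pattern of LOXL2 and P4HA1 at a smaller size. PLOD2, which hydroxylates the telopeptide lysines of collagen (chromosome 3, 146035139 to 146163725, minus strand), was at 13.28, 13.88 and 13.17 TPM in plvx neo, 15.23, 14.19 and 15.24 in the libraries labelled STBD1 WT and 11.67, 12.72 and 10.92 in those labelled STBD1 W203C. No group overlapped another. Its log2 fold change was 0.14 (SE 0.0587) for STBD1 WT vs plvx neo, which passed the test only without plvx neo replicate 2 or after the GC and length correction, −0.35 (SE 0.0604) for STBD1 W203C vs STBD1 WT and −0.22 (SE 0.0649) for STBD1 W203C vs plvx neo. The last of these was called in 7 of 14 alternatives. It was lost with the DESeq2 test, on both TPM scales and without plvx neo replicate 2 or 3 or STBD1 W203C replicate 2 or 3, with values between −0.27 and −0.17 over all alternatives.

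PLOD1, which acts on lysines of the helix, was at 127.86, 127.30 and 131.54 TPM in plvx neo, 144.52, 139.91 and 128.20 in the libraries labelled STBD1 WT and 121.28, 132.17 and 125.91 in those labelled STBD1 W203C. These ranges overlapped throughout. A log2 fold change of −0.13 (SE 0.0410) for STBD1 W203C vs STBD1 WT was called and kept in 7 of 14 alternatives. It was lost on both TPM scales, after the GC and length correction and without STBD1 WT replicate 1 or 2 or STBD1 W203C replicate 1 or 2, ranging from −0.18 to −0.04 over all alternatives. The other 2 differences of PLOD1 were 0.07 (SE 0.0430) for STBD1 WT vs plvx neo, called only without STBD1 WT replicate 3 and turned to −0.03 by the GC and length correction, and −0.06 (SE 0.0366) for STBD1 W203C vs plvx neo.

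PLOD3, which also transfers glucose to collagen, gave different answers by scale. In TPM it was at 45.12, 42.39 and 51.50 in plvx neo, 45.82, 48.23 and 47.50 in the libraries labelled STBD1 WT and 51.68, 57.47 and 58.46 in those labelled STBD1 W203C, so that the last group lay above both others. On normalised counts the 3 groups overlapped, and the log2 fold change was −0.03 (SE 0.0534) for STBD1 WT vs plvx neo, 0.09 (SE 0.0498) for STBD1 W203C vs STBD1 WT and 0.05 (SE 0.05) for STBD1 W203C vs plvx neo, none of them called. On the log2(TPM + 1) scale the last 2 differences were 0.24 and 0.27. PLOD3 was called between the constructs on that scale, at 0.19 after the GC and length correction and at 0.15 without STBD1 WT replicate 1, and it was called at −0.15 in STBD1 WT vs plvx neo after the GC and length correction. The mean transcript length that the authors' quantification assigned to PLOD3 was 2038 ± 114 bases in plvx neo, 1961 ± 150 in the libraries labelled STBD1 WT and 1823 ± 67 in those labelled STBD1 W203C, and TPM divides by this length while counts do not. PLOD3 made up 24.5 ± 1.60%, 23.7 ± 1.3% and 28.8 ± 1.02% of the summed lysyl hydroxylase TPM in the 3 groups. It shares 102 exon bases with ZNHIT1 on the opposite strand, which averaged 64.5 TPM and had log2 fold changes between −0.04 and 0.08.

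SERPINH1, the collagen-specific chaperone (chromosome 11, 75562056 to 75572783, plus strand), ran opposite to LOXL2. Its level was 73.75, 71.77 and 75.09 TPM in plvx neo, 72.11, 72.43 and 65.41 in the libraries labelled STBD1 WT and 89.51, 86.50 and 98.03 in those labelled STBD1 W203C. The libraries labelled STBD1 W203C lay above both other groups, which overlapped in TPM. On normalised counts SERPINH1 was 1.31-fold higher in STBD1 W203C than in STBD1 WT (log2 fold change 0.39, SE 0.0465) and 1.21-fold higher than in plvx neo (0.27, SE 0.0459). A difference of −0.11 (SE 0.0409) for STBD1 WT vs plvx neo was called in the fit of these 6 libraries but kept that call in 5 of 14 alternatives, and it was lost with the DESeq2 test, with no filter, on both TPM scales, in the fit of all 9 libraries and without plvx neo replicate 1 or 3 or STBD1 WT replicate 1 or 3.

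Across all genes, 27.8% of 15289 were called in STBD1 WT vs plvx neo (13.9% higher and 13.9% lower), against 3 of the 9 tested genes of the group, LOXL2 and P4HA1 higher and SERPINH1 lower. In STBD1 W203C vs STBD1 WT, 27.9% of 15052 were called (14.5% higher, 13.4% lower), against 5 of 9, with SERPINH1 higher and LOXL2, P4HA1, PLOD1 and PLOD2 lower. In STBD1 W203C vs plvx neo, 5.70% of 15081 were called (3.03% higher, 2.67% lower), against 4 of 9, with SERPINH1 higher and LOXL2, P4HA1 and PLOD2 lower. The genes were put together with results of these comparisons known, so these counts describe the group and nothing was read from them. Groups that lie apart are no mark of a call. On normalised counts LOXL1, P4HA2 and PLOD2 did not overlap between STBD1 WT and plvx neo, and none of them was called. The share of all genes whose groups lie apart is not given here, so the lack of overlap is only a description. The median log2 fold change of the 9 tested genes was 0.07, −0.14 and −0.06 in the 3 comparisons, and that of all genes 0.01, −0.01 and 0.00. The balance of calls over all genes depended on the scale: after correction for GC content and length, 31.4% of calls were higher in STBD1 WT vs plvx neo in place of 2128 of 4254, and 70.3% in STBD1 W203C vs STBD1 WT in place of 51.8%, while on log2(TPM + 1) the last share was 68.8%, and in STBD1 W203C vs plvx neo 74.0% in place of 53.2%. The direction of LOXL2, P4HA1, PLOD2 and SERPINH1 was the same on all these scales. Every pair of comparisons shares 1 group of libraries, so their values are not independent of each other.

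**Figure D3:**
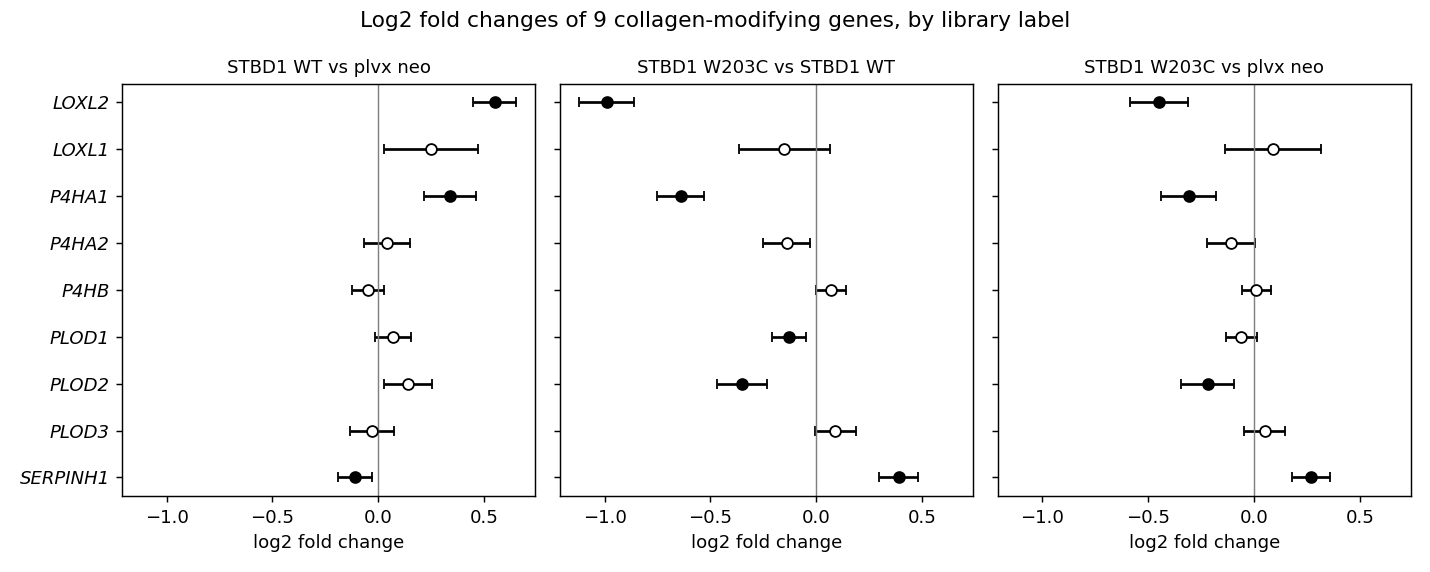
Log2 fold change (horizontal axes) of the 9 tested genes in the 3 comparisons, by library label, from normalised counts. Bars are 95% intervals and filled points are genes called at an adjusted p below 0.05. LOXL2 has the largest difference of the 9 in each panel (0.55, −0.99 and −0.45), and SERPINH1 lies on the opposite side of 0.

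A window of 300 bases around the transcription start, 250 before and 50 after, was read from RefSeq (GRCh38.p14) for 9 of the 10 genes, all but LOXL2, the gene the others are compared with here. The window of P4HA2 lies 762 bases from the start of its reference transcript and the other 8 lie at it. The windows of P4HA1, PLOD2 and SERPINH1 are shown because the first pair had the pattern of LOXL2 and SERPINH1 the opposite one. Capitals mark matches, on either strand, to ACGTG or GCGTG, the core letters bound by HIF, and to GAANNTTC, the inverted unit bound by heat shock factor. P4HA1 lies at chr10:73096817-73097116 (minus strand), PLOD2 at chr3:146161135-146161434 (minus strand) and SERPINH1 at chr11:75562003-75562302 (plus strand), each printed 5′ to 3′ in the direction of transcription.
P4HA1: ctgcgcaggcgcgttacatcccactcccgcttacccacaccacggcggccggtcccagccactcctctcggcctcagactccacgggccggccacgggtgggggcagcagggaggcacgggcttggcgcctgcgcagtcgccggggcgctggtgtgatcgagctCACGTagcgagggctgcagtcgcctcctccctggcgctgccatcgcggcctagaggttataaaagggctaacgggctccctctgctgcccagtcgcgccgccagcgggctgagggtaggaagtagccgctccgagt
PLOD2: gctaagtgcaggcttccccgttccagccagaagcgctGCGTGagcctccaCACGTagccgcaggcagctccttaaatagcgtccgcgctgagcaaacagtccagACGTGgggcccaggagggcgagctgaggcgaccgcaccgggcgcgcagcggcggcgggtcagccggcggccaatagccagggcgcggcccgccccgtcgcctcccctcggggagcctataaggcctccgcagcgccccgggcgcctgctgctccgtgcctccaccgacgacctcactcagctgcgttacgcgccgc
SERPINH1: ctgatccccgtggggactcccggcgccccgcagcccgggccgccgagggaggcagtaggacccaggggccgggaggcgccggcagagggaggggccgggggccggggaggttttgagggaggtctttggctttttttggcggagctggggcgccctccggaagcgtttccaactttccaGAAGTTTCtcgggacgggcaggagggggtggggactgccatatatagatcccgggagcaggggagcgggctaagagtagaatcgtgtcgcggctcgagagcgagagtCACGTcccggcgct
ACGTG or GCGTG was found in the windows of 6 of the 9 genes, against 48.4% of 35116 RefSeq windows of the same length, so the match is common. P4HA1 held 1 match and PLOD2 held 3, but SERPINH1, LOX, P4HB and PLOD1 held them too. GAANNTTC was found in SERPINH1 and PLOD1, against 6.77% of all windows. A match is a description of letters and not of a bound site.

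Collagens are substrates of these enzymes, and the next list holds them together with genes of elastic fibres. Of 33 collagen and elastic fibre genes, 23 passed the filter, and of these 10 rose and 0 fell in STBD1 WT vs plvx neo, with a median log2 fold change of 0.39 (over all genes 13.9% were higher and 13.9% lower). In STBD1 W203C vs STBD1 WT 0 rose and 13 fell (median −0.36; over all genes 14.5% higher and 13.4% lower), and in STBD1 W203C vs plvx neo 1 rose and 1 fell (median 0.01). Median values over all genes were 0.01, −0.01 and 0.00 in the same comparisons. The list was chosen with earlier results of these data known, so its counts are a description. In STBD1 WT vs plvx neo COL4A3 kept its call in 7 of 14 alternatives and lost it with the DESeq2 test. COL7A1 kept its call there in 9 of 14, with values from −0.13 to 0.44. Between the constructs COL27A1 kept its call in 3 of 14 alternatives, COL4A4 in 4, COL18A1 in 6 and COL4A3 in 9. The sign was not the same in every alternative for COL27A1 (−0.23 to 0.11) or COL18A1 (−0.16 to 0.03). COL4A5, COL6A2, COL9A3 and COL17A1 kept theirs in 14 of 14, and the DESeq2 test called 10 genes of the list there. With the edgeR quasi-likelihood test and Benjamini-Hochberg adjustment, COL17A1, a transmembrane collagen of hemidesmosomes, had the largest rise in STBD1 WT vs plvx neo (log2 fold change 1.61, SE 0.137, adjusted p = 3.69e-08), followed by the basement membrane chains COL4A6 (0.89, SE 0.147, adjusted p = 1.37e-04) and COL4A5 (0.79, SE 0.0627, adjusted p = 1.24e-08). The largest falls in STBD1 W203C vs STBD1 WT were those of COL13A1, another transmembrane collagen (−1.04, SE 0.148, adjusted p = 2.11e-05), COL17A1 (−0.79, SE 0.122, adjusted p = 5.43e-05) and COL9A3 (−0.60, SE 0.0722, adjusted p = 3.31e-06). Against plvx neo, STBD1 W203C differed in COL17A1 (0.82, SE 0.159, edgeR adjusted p = 0.00212) and COL13A1 (−0.82, SE 0.161, edgeR adjusted p = 0.00217). These 2 calls, and that of COL13A1 between the constructs, were lost on both TPM scales. The COL4A6 call was lost on log2(TPM + 0.1). The size of the rises in STBD1 WT vs plvx neo varied over the alternatives. It ran from 1.09 to 1.70 for COL17A1, from 0.48 to 0.93 for COL4A6 and from 0.44 to 0.82 for COL4A5. After correction for GC content and length the medians of the list were 0.26 and −0.25 in the first 2 comparisons, with 9 genes higher and 10 lower, and on log2(TPM + 1) they were 0.18 and −0.14, with 6 genes higher and 5 lower.

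**Figure D4:**
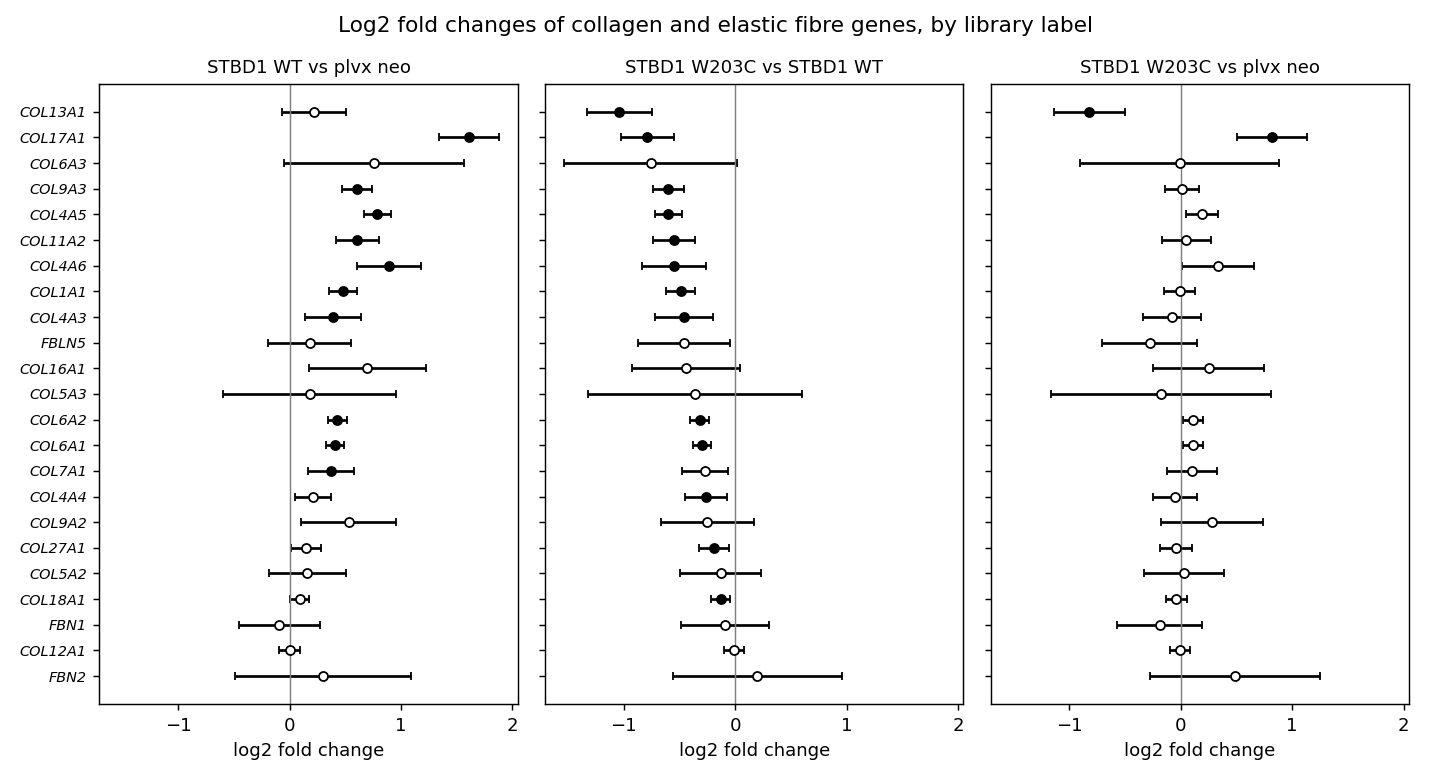
Log2 fold change (horizontal axes) of the 23 collagen and elastic fibre genes that could be tested, by library label, ordered by their value in STBD1 W203C vs STBD1 WT. Bars are 95% intervals and filled points are genes called at an adjusted p below 0.05. In the first panel the 10 called genes lie above 0 and in the second the 13 called genes lie below it.

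Of the collagens among the fibroblast markers, only COL1A1 was expressed above trace level. COL1A1 was between 12.61 and 21.62 TPM, while its partner chain COL1A2 reached at most 0.03 TPM and COL3A1 at most 0.09 TPM. COL6A1 and COL6A2 had means of 38.1 and 43.1 TPM in the libraries labelled STBD1 WT, with COL6A3 at 0.127 TPM in the same group. The common basement membrane chains COL4A1 and COL4A2 did not exceed 0.22 TPM, whereas COL4A5 had means of 8.56, 11.9 and 8.49 TPM in plvx neo, STBD1 WT and STBD1 W203C.

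Among 15 further genes of collagen modification and folding, 14 were tested, and 1 rose and 1 fell in STBD1 WT vs plvx neo, 3 rose and 1 fell in STBD1 W203C vs STBD1 WT, and 0 of 14 passed in STBD1 W203C vs plvx neo by edgeR or by DESeq2. The shares in the first 2 comparisons, 2 of 14 and 4 of 14, lie below or near the 27.8% and 27.9% of all genes called. TXNDC5, a disulfide isomerase like P4HB, fell in STBD1 WT vs plvx neo (log2 fold change −0.30, SE 0.0368, edgeR adjusted p = 4.27e-06) and rose in STBD1 W203C vs STBD1 WT (0.22, SE 0.0350, edgeR adjusted p = 7.35e-05), the direction of SERPINH1 in these 2 comparisons. FKBP10, a prolyl isomerase that partners PLOD2, had the signs of LOXL2 in the same 2 comparisons (0.28, SE 0.0679, edgeR adjusted p = 0.00390, and −0.22, SE 0.0659, edgeR adjusted p = 0.0150), and PPIB, another prolyl isomerase, rose by 0.13 (SE 0.0413, edgeR adjusted p = 0.0212) in STBD1 W203C vs STBD1 WT. In STBD1 W203C vs plvx neo these likenesses did not hold. There TXNDC5 was at −0.09 against 0.27 for SERPINH1, and FKBP10 at 0.05 against −0.45 for LOXL2. The FKBP10 calls were lost on both TPM scales and after the GC and length correction, and between the constructs also without STBD1 WT replicate 1 or 3 or STBD1 W203C replicate 2. In TPM FKBP10 overlapped between groups (22.54 to 29.10 in plvx neo, 28.54 to 33.06 under the STBD1 WT label and 28.27 to 29.69 under the STBD1 W203C label). The PPIB call was lost on both TPM scales and without STBD1 WT replicate 3 or STBD1 W203C replicate 2 or 3, while both calls of TXNDC5 were kept in 14 of 14 alternatives. After the GC and length correction 0 genes of this list rose and 4 fell in STBD1 WT vs plvx neo, and 4 rose and 0 fell between the constructs. Of 8 procollagen proteinases and enhancers, 7 were tested. ADAMTS14, which trims the amino end of procollagen, rose by 0.47 (SE 0.0692, edgeR adjusted p = 4.19e-05) in STBD1 WT vs plvx neo and fell by 0.49 (SE 0.0731, edgeR adjusted p = 3.68e-05) in STBD1 W203C vs STBD1 WT. BMP1, which trims the carboxyl end, rose by 0.18 in the former (SE 0.0547, edgeR adjusted p = 0.0168), and ADAMTS2 fell by 0.57 in the latter (SE 0.148, edgeR adjusted p = 0.00613). The BMP1 call was lost after the GC and length correction and without plvx neo replicate 2 or STBD1 WT replicate 3. The ADAMTS2 call was lost on both TPM scales, and both calls of ADAMTS14 were kept in 14 of 14 alternatives. Those were all the calls in this list, 2 of 7 in each of the first 2 comparisons against 27.8% and 27.9% of all genes, and 0 of 7 passed in STBD1 W203C vs plvx neo by either edgeR or DESeq2.

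HIF subunits, VHL and the hydroxylases that sense oxygen were 9 genes, all of them tested. These hydroxylases share cofactors with prolyl 4-hydroxylase and the lysyl hydroxylases. In STBD1 WT vs plvx neo 2 rose and 0 fell, in STBD1 W203C vs STBD1 WT 0 rose and 5 fell, and in STBD1 W203C vs plvx neo 1 rose and 1 fell, with medians of 0.09, −0.15 and −0.03. EGLN3, an oxygen-sensing hydroxylase that is itself a HIF target, had the largest changes (0.51, SE 0.116, edgeR adjusted p = 0.00233, and −0.88, SE 0.122, edgeR adjusted p = 1.48e-05, in the first 2 comparisons). VHL, which marks HIF for degradation, changed by 0.19 (SE 0.0503, edgeR adjusted p = 0.00763) and −0.21 (SE 0.0486, edgeR adjusted p = 0.00238). EPAS1, the HIF-2 alpha subunit, fell by 0.31 in STBD1 W203C vs STBD1 WT (SE 0.0577, edgeR adjusted p = 3.43e-04) and by 0.22 against plvx neo (SE 0.0575, edgeR adjusted p = 0.0201), and HIF1A rose by 0.15 against plvx neo (SE 0.0434, edgeR adjusted p = 0.0448). Over all genes 13.9% were higher and 13.9% lower in the first comparison, 14.5% and 13.4% in the second and 3.03% and 2.67% in the last. The HIF1A call was kept in 7 of 14 alternatives. It was lost in the fit of all 9 libraries, on both TPM scales and without plvx neo replicate 1 or 3 or STBD1 W203C replicate 1 or 2. The EPAS1 call against plvx neo was lost on both TPM scales and without plvx neo replicate 2 or 3 or STBD1 W203C replicate 3. The calls of VHL in both comparisons, and of EPAS1 between the constructs, were lost only on the TPM scales, and those of EGLN3 in the first 2 comparisons were kept in 14 of 14 alternatives. EGLN1 (−0.15) and ARNT (−0.18) also fell in STBD1 W203C vs STBD1 WT. Their calls were kept in 7 and 5 of 14 alternatives. Both were lost with the DESeq2 test, which called 3 genes of the list there. The counts of this list shifted with the scale: after the GC and length correction 2 rose and 2 fell in the first comparison and 1 rose and 3 fell in the second, and on log2(TPM + 1) the second held 1 fall.

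Of 9 regulators and markers of epithelial-mesenchymal transition, in which LOXL2 has a known part through SNAI1, 7 were tested, and CDH1 and FN1 were called in STBD1 WT vs plvx neo and in STBD1 W203C vs STBD1 WT. This share, 2 of 7, is close to the 27.8% and 27.9% of all genes called. CDH1, the epithelial cadherin, rose by 0.27 (SE 0.0444, edgeR adjusted p = 1.07e-04) in STBD1 WT vs plvx neo and fell by 0.27 (SE 0.0481, edgeR adjusted p = 2.48e-04) in STBD1 W203C vs STBD1 WT. FN1, fibronectin, which rises in the transition as CDH1 falls, went the same way as CDH1 here (0.27, SE 0.0713, edgeR adjusted p = 0.00781, and −0.38, SE 0.0755, edgeR adjusted p = 5.97e-04), although its TPM in the first comparison overlapped between groups (5.25 to 7.74 and 6.70 to 7.10). On both TPM scales 0 of 7 were called between the constructs and CDH1 alone in STBD1 WT vs plvx neo, where the FN1 call was also lost without plvx neo replicate 3. In TPM, CDH1 overlapped between the constructs (24.56 to 29.56 and 23.29 to 25.10). SNAI1 itself had means of 20.4, 21.0 and 19.5 TPM in plvx neo, STBD1 WT and STBD1 W203C, and 0 of 7 passed in STBD1 W203C vs plvx neo by edgeR or DESeq2.

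Over the 9 libraries, the profiles most like that of LOXL2 in log2 CPM (counts scaled by normalised library size) were those of EZH1, SAT1, EHBP1L1, ANTXR2 and HK1, with Pearson r between 0.98 and 0.99 among 11317 genes compared, of which 229 reached 0.90. The libraries fall into 3 groups, so the coefficient includes the differences between group means and is given as a description. SAT1 differed by 0.61, −1.01 and −0.40 in the 3 comparisons, against 0.55, −0.99 and −0.45 for LOXL2, while EZH1, EHBP1L1, ANTXR2 and HK1 had smaller ones, between 0.29 and 0.44 in size between the constructs. ANTXR2 encodes a receptor that binds collagen type VI. Within the group of collagen-modifying genes, the coefficient to LOXL2 was 0.96 for P4HA1, 0.90 for PLOD2, 0.84 for P4HA2, 0.75 for PLOD1, 0.52 for LOXL1, −0.19 for LOX, −0.50 for PLOD3, −0.60 for P4HB and −0.94 for SERPINH1. With the group means removed, EZH1, SAT1, EHBP1L1, ANTXR2 and HK1 had coefficients of 0.91, 0.75, 0.71, 0.81 and 0.70. These genes were picked for the highest coefficient over the same 9 libraries, so their values here are partly fixed by that choice. The collagen-modifying genes were chosen by symbol, so their values cannot be compared with those of the picked genes. With the group means removed, the coefficient was 0.76 for LOX, which rests on 5 to 21 counts. It was 0.43 for P4HA1, 0.30 for LOXL1, 0.14 for PLOD1 and 0.04 for PLOD2. It was −0.07 for P4HA2, −0.09 for PLOD3, −0.15 for P4HB and −0.73 for SERPINH1.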

How the data were processed

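RNA from HCT116 cells was extracted, made into cDNA libraries with a NEBNext Ultra kit and sequenced as Illumina read pairs by the authors, who aligned reads to hg38 with STAR 2.7.1a and quantified genes with RSEM 1.3.1. The deposited tables, 1 per library, hold the authors' expected count of each gene, which divides reads between compatible transcripts, and the authors' TPM, which scales these by transcript length to a fixed total per library. The authors' mean transcript length per gene is in the same deposited tables. Whether counting used strand was not stated, which leaves overlapping genes uncertain.

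Groups and replicate numbers came from sample titles. Expected counts were rounded, and the 6 libraries of each comparison were fitted alone with edgeR 4.0.16 in R 4.3.3 (filterByExpr, TMM, quasi-likelihood F-test, two-sided, Benjamini-Hochberg over all genes tested), calling genes at an adjusted p below 0.05. Standard errors (SE) are the size of a log2 fold change over the square root of its F statistic. The 95% intervals apply a normal multiplier to this SE, so with so few libraries they may be too narrow. They are not adjusted for the number of genes, so an interval may exclude equal levels in a gene that was not called. Family shares were computed from TPM. Alternatives were DESeq2 1.42.0 size factors, the DESeq2 test, no filter, limma 3.58.1 (limma-trend) on log2(TPM + 1) and log2(TPM + 0.1), all 9 libraries in 1 fit, the replicate number as a block, leaving out each library and, chosen after seeing the data, a GC and length correction. The main fit and some of the alternatives were run on simulated counts in which a small set of genes was changed. The simulated counts held no trend with GC content or length, so they cannot judge that correction. No 2 replicate libraries agreed within sampling noise (chi-square per gene at least 2.12).

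The members and the other gene lists were chosen with earlier results of these data known. All 10 members were named whatever their result. From each other list the 3 called genes with the largest log2 fold change in each comparison were named, then the 5 genes with the highest Pearson r to LOXL2 among those with a mean of at least 5 CPM (log2 CPM with a prior count of 2). Further genes were named to describe which calls held under the alternatives. Levels of further collagens, of SNAI1 and of marker genes describe the cells.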

Additional observations from a re-analysis of the deposited data

How the results depend on the processing

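Of 378 values of the 9 tested collagen-modifying genes under alternatives, 354 moved by less than the spread between replicates, 24 moved by more and 0 of those called changed sign. Of the 12 calls made in the 3 comparisons together, 7 were kept under every alternative, and those of LOXL2 and P4HA1 in STBD1 W203C vs plvx neo were lost only on the TPM scales. On log2(TPM + 1), limma-trend called 1751 genes in STBD1 WT vs plvx neo, 1828 in STBD1 W203C vs STBD1 WT and 131 in STBD1 W203C vs plvx neo, and on log2(TPM + 0.1) it called 1749, 1807 and 115, in place of 4254, 4202 and 859. Of the collagen-modifying genes only 1, SERPINH1, was called in STBD1 W203C vs plvx neo on either TPM scale. The log2 fold change of LOXL2 in STBD1 WT vs plvx neo was 0.49 on log2(TPM + 1) and 0.43 after correction for GC content and length, which called 6 of the 9 genes there. The causes of these differences were not tested. Leaving out 1 library at a time gave 3317 to 3794 genes in STBD1 WT vs plvx neo, 3307 to 3618 in STBD1 W203C vs STBD1 WT and 459 to 818 in STBD1 W203C vs plvx neo, where the count was 459 without plvx neo replicate 3, 501 without STBD1 W203C replicate 1 and 543 without STBD1 W203C replicate 2. LOXL2 then ranged over all alternatives from 0.43 to 0.57, from −1.08 to −0.87 and from −0.54 to −0.37 in the 3 comparisons.

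Same-numbered libraries deviated together little if at all (correlations between −0.0124 and 0.0677, 0 of 3 pairs above 0.1 in each comparison). No clear pairing by number was seen, but so few libraries cannot exclude a shared preparation. With the replicate block, 4400, 3662 and 1003 genes were called, and 3, 5 and 4 of the 9 collagen-modifying genes, as without it. Depth limits LOX, with 5 to 21 counts per library, to wide intervals, and the 153 to 233 counts of LOXL1 give it the widest intervals of the tested genes.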
